A study of Drosophila melanogaster with 6 samples.

Results

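The factors described here are 9 basic helix-loop-helix (bHLH) genes of Drosophila, Mitf, Max, Mnt, Myc, tgo, crp, da, emc and sima. They were taken by name, as every probe set with a single platform symbol that is the current symbol or a synonym of one of them. Probe sets with several symbols were not taken, nor was Mad, a synonym of Mnt that is now the symbol of another gene. Of the 9 genes, 8 had a probe set under such a symbol, among 11953 genes named on the array, and Myc was not analysed here. RNA was measured on 6 Affymetrix arrays in S2 cells, a blood cell-like line that came from late embryos, 48 h after transfection. The control cells received the empty vector (2 arrays) and the others received pAc-Clk, a plasmid for expressing Clk, at 10 ng (2 arrays), 30 ng or 100 ng (1 array each). All groups share the line and the transfection itself, and the labels do not say whether replicates came from separate cultures, so the p-values cover only a spread between arrays that may be technical.

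Most bHLH proteins bind DNA as dimers. A basic region contacts the E-box motif or a related site, and a helix-loop-helix joins the partners. Clk and Cyc form such a dimer at clock genes, and other dimers of the family can bind the same kind of site. In the leucine zipper class, Max pairs with the growth activator Myc or with the repressor Mnt, Mitf controls lysosomal genes, and crp is the fly relative of the mammalian factor AP-4. In the PAS class, tgo is the common partner that joins the hypoxia factor sima, among others. da is the E protein that pairs with tissue-specific bHLH factors, and emc, which lacks a basic region, binds such proteins and keeps them from DNA.

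Signals are given as log2 values, a scale inferred from the numbers themselves, since the sources used here do not state their base. Taken at face value instead, each log2 difference would be 1.44 times as large. The background level of each array was taken as its highest Tag control, out of 17 such probe sets that match no fly transcript. This level was 2.96 and 2.97 for the controls, 2.95 and 3.22 at 10 ng, then 3.18 at 30 ng and 3.56 at 100 ng. A probe set was tested where 2 or more of the 6 arrays had a signal of at least 4 (8446 probe sets, 6607 genes by their brightest probe set). Of 12 haemocyte markers, 10 read 4 or more on both controls, and lz and PPO1 did not. Of the markers of other cell types, elav, brp, bam, osk and Fbp1 also read 4 or more there, while those of muscle and gut did not. On the 30 and 100 ng arrays the 5' ends of 3 abundant control transcripts read low. Their mean 5' minus 3' signal was -9.40 and -8.25, whereas controls had -0.75 ± 0.0040 and the 10 ng arrays -0.94 ± 0.43 (SD, n = 2 each).

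Of the 8 genes with a probe set, 7 were read above the highest Tag control on all 6 arrays, namely Max, Mnt, tgo, crp, da, emc and sima. Mitf was the exception and lay at the edge of background in control cells. Levels of different probe sets cannot be set against each other, so each is described against background only. Max, the shared partner of the Myc network, read 9.91 and 10.05 in controls, 9.88 and 9.76 at 10 ng, then 10.50 at 30 ng and 11.24 at 100 ng. The control and 10 ng values of Max lay within a narrow band and the 100 ng array was highest. Mnt read 7.17 and 7.54 in controls, 6.79 and 7.37 at 10 ng, then 5.93 at 30 ng and 6.61 at 100 ng. Both single-dose arrays lay below both controls for Mnt, and the 10 ng arrays overlapped the controls.

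The Mitf probe set read 3.10 and 3.03 in controls, 3.20 and 3.14 at 10 ng, then 4.10 at 30 ng and 6.83 at 100 ng. Over each array's own highest Tag control this was 0.13 and 0.06 in controls, 0.25 and -0.08 at 10 ng, then 0.92 at 30 ng and 3.27 at 100 ng. Mitf was therefore near background on the control and 10 ng arrays, and it passed the signal filter only through the 30 and 100 ng arrays. crp read 8.59 and 9.15 in controls, 8.60 and 9.26 at 10 ng, then 7.97 at 30 ng and 8.70 at 100 ng. The 30 ng array was the lowest for crp, while its 100 ng array fell between the control arrays.

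tgo, the common PAS partner, read 9.79 and 9.89 in controls, 9.80 and 9.65 at 10 ng, then 10.33 at 30 ng and 11.31 at 100 ng. Its controls and 10 ng arrays overlapped, and the single-dose arrays were higher. sima had 2 probe sets, which disagreed. The first read 8.68 and 8.46 in controls, 7.95 and 8.63 at 10 ng, then 8.45 at 30 ng and 9.06 at 100 ng. The second, annotated to CG31031, now listed as a synonym of sima, stayed between 2.36 and 2.63 on the 6 arrays, under the highest Tag control on each, and was not tested. All values of sima below come from the first.

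da, the E protein, read 10.22 and 10.56 in controls, 9.81 and 10.34 at 10 ng, then 9.95 at 30 ng and 10.24 at 100 ng, and no dose separated from the controls except 30 ng, which was below both. emc, its inhibitor, read 8.74 and 9.46 in controls, 8.55 and 9.77 at 10 ng, then 9.74 at 30 ng and 10.68 at 100 ng. The 10 ng arrays of emc differed 2.32-fold from each other and enclosed both controls. For Mnt, crp, da and emc, 4 of the 8 tested members, replicate 2 read above replicate 1 in both the control and the 10 ng group.

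**Figure D1:**
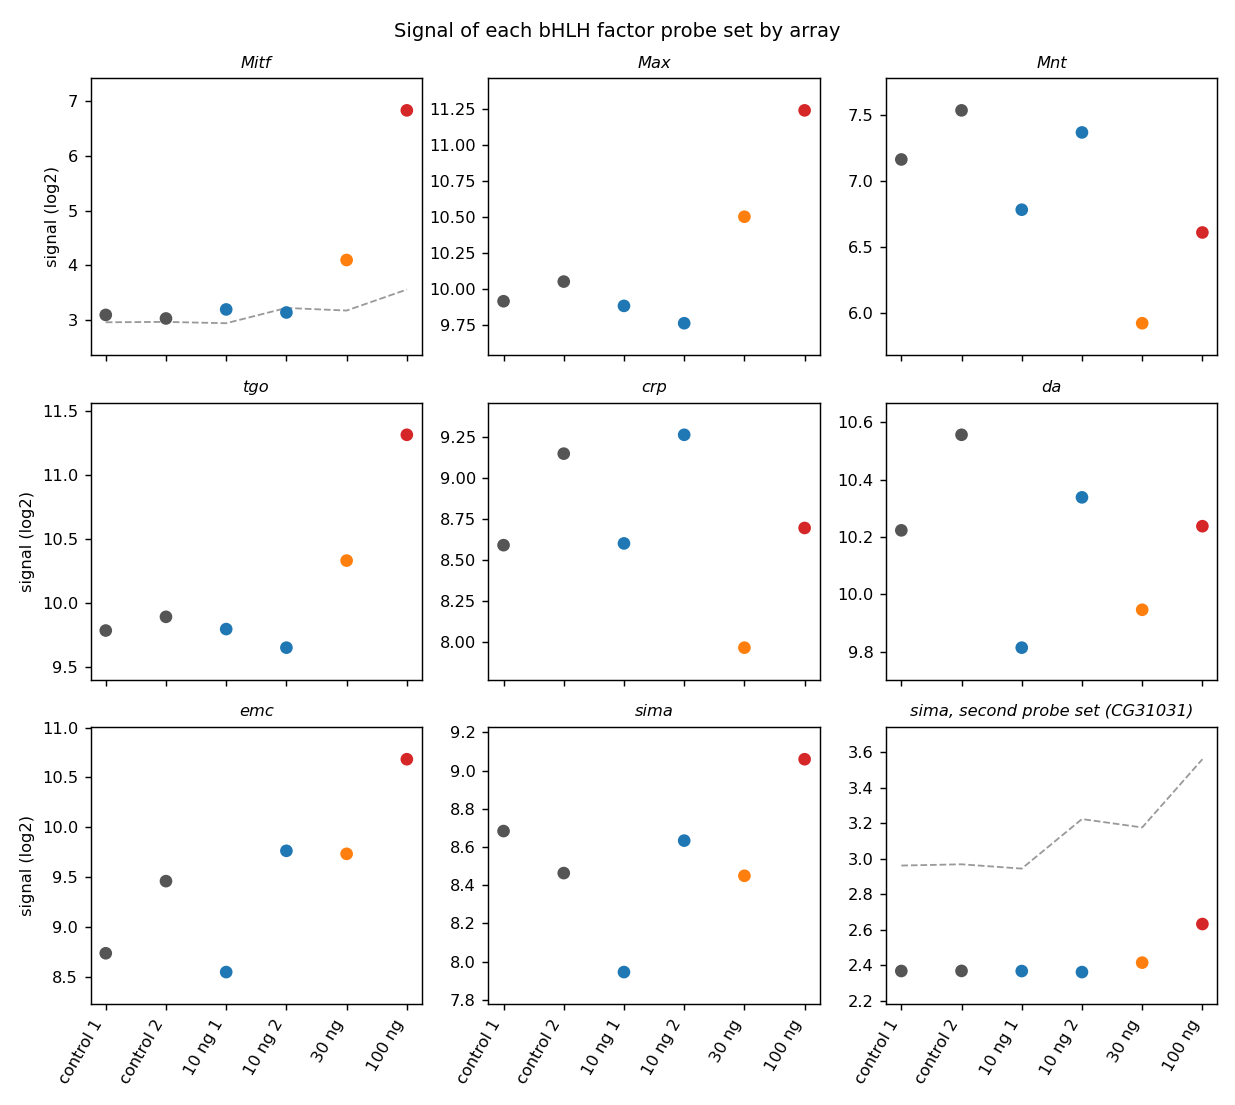
Signal (log2) of the 9 probe sets of the bHLH factors on each of the 6 arrays, 1 point per array, with a separate y range in each panel. The dashed line in the Mitf panel and in that of the second sima probe set is the highest Tag control of each array. Mitf leaves that line at 30 ng (4.10) and 100 ng (6.83), whereas the second sima probe set stays under it.

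The wider family was described from a list of 58 fly bHLH genes, of which 52 had a probe set with a single symbol. Of these, 19 read 4 or more on both control arrays. In the leucine zipper group these were 6 of 7 genes, Max, Mnt and crp together with the sugar-responsive factor Mondo, its partner bigmax and the lipid regulator SREBP. In the PAS group they were 6 of 9 genes, tgo, sima and cyc together with the juvenile hormone receptors Met and gce and the coactivator tai. emc, the only gene of the group without a basic region, was also among them. Of 11 Hairy, E(spl) and Hey genes, 4 read at this level, hry, cwo, E(spl)mbeta-HLH and E(spl)m3-HLH. Of 24 proneural and tissue-specific genes there were 2, da and sage. In all, 22 of the 52 genes passed the signal filter. The control signals of the other 30 lay between 2.08 and 3.97, and 22 of these 30 were at background on both controls, under the highest Tag signal, among them ac, sc, ase, twi and dpn.

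**Figure D2:**
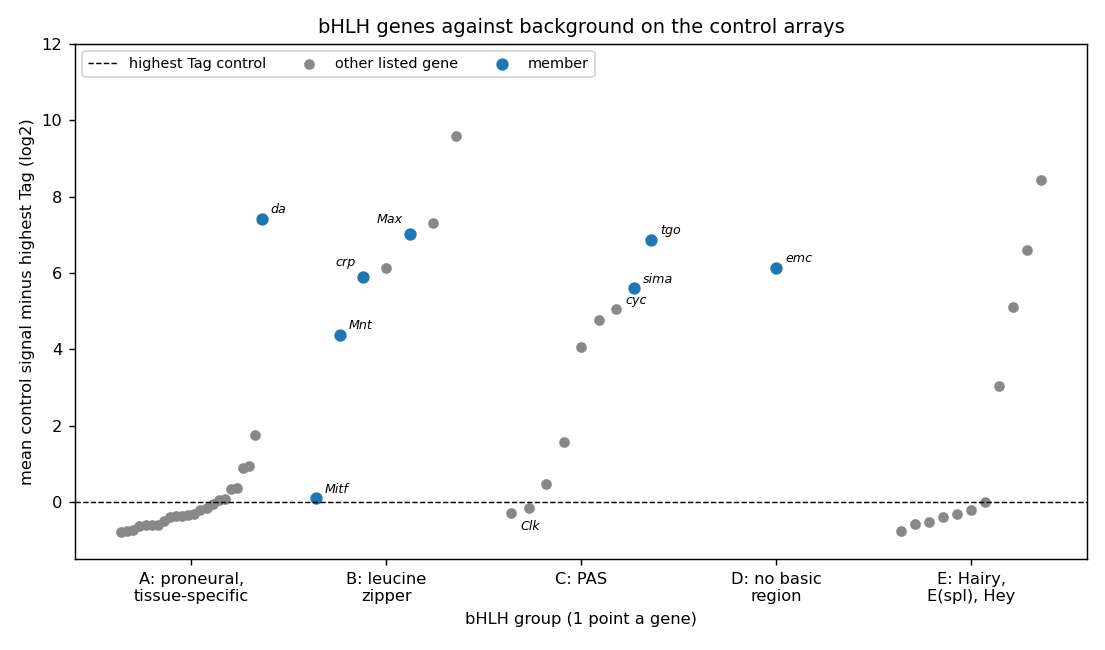
Mean signal of the 2 control arrays minus the highest Tag control (log2) for 52 listed bHLH genes, 1 point per gene by its brightest tested probe set, or its brightest where none was tested, sorted within each group. Members are in blue, and Max, Mnt, tgo, crp, da, emc and sima lie well over the dashed background line, while Mitf lies on it with Clk just under it. Heights of different genes are not comparable as RNA levels.

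Clk and cyc were read on the same arrays. Clk read 2.50 and 2.84 in controls, 3.46 and 3.47 at 10 ng, then 5.07 at 30 ng and 4.66 at 100 ng, and its control values were under the highest Tag control. cyc read 8.001 and 8.035 in controls, 7.87 and 7.68 at 10 ng, then 7.16 at 30 ng and 5.80 at 100 ng.

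Whether the factors moved at 10 ng, the dose with replicates, was tested in a fit across all probe sets (limma, Benjamini-Hochberg adjusted p). None of the 8 tested members passed in either direction, at an adjusted p of 1.00 for each and unadjusted p-values from 0.144 (da) to 0.875 (emc). Over all genes 0.0605% passed, which was 4 of 6607 genes, each of them higher, and 1.97% had an unadjusted p under 0.05, against 0 of the 8 members. The control and 10 ng arrays did not overlap for 2 of the 8, Mitf and Max, and for 26.5% of all genes. A miss does not show that the levels were equal, so the intervals are given for each. The array measures bulk RNA, in which fewer cells with a transcript and less of it per cell cannot be told apart.

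In the leucine zipper class, Mitf differed by 0.10 at 10 ng (SE 0.19, 95% interval -0.32 to 0.53). Both 10 ng arrays of Mitf lay above both controls, as 3.57% of all genes did. Because Mitf lay near background on these 4 arrays, the interval describes the probe set's signal and sets no limit on the fold of its RNA. Max differed by -0.16 (SE 0.14, interval -0.48 to 0.16), and both its 10 ng arrays lay below both controls, as 22.9% of all genes did. Mnt differed by -0.27 (SE 0.26, interval -0.85 to 0.30) and crp by 0.06 (SE 0.26, interval -0.52 to 0.64).

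In the PAS class, tgo differed by -0.11 (SE 0.14, interval -0.44 to 0.21) and sima by -0.28 (SE 0.24, interval -0.82 to 0.25). da differed by -0.31 (SE 0.20, interval -0.76 to 0.13) and emc by 0.06 (SE 0.36, interval -0.74 to 0.85). As folds, the intervals were narrowest for Max, at 0.717 to 1.12-fold of control, and tgo, at 0.739 to 1.15-fold. They were widest for emc, at 0.599 to 1.81-fold, so a change of moderate size in emc was not detectable with 2 arrays a group. The median difference of the 8 tested members was -0.14, and that of all genes was -0.09.

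Single arrays moved these differences, and for some members set the sign. da, with the largest difference, was -0.05 without the first 10 ng array and -0.58 without the second (limma unadjusted p = 0.0226). sima was -0.63 without the second 10 ng array (limma unadjusted p = 0.0261). Without the first 10 ng array the value of Mnt was 0.02 and that of sima 0.06. Without the second 10 ng array, crp was -0.27 and emc -0.55, and without the first control array crp was -0.22 and emc -0.30. None of these passed after adjustment.

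**Figure D3:**
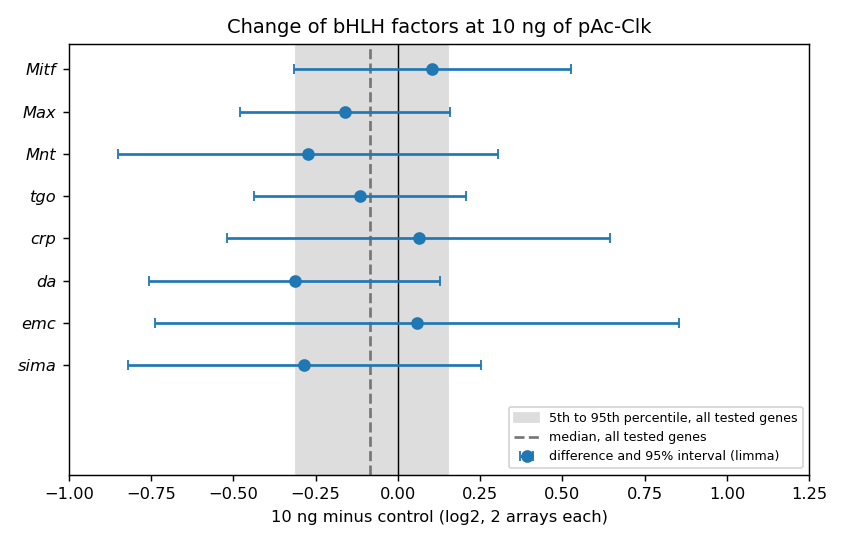
Difference between 10 ng and control (log2) for the 8 tested factors, with the 95% interval from limma (n = 2 arrays each). The grey band spans the 5th to 95th percentile of the differences of all tested genes and the dashed line is their median (-0.09). Each interval includes 0, and the point of da (-0.31) lies at the lower edge of the band.

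The 30 and 100 ng doses have 1 array each, so their differences from the control mean have no replicate check and no p-value is given. A difference past 1 on the log2 scale, a 2-fold change, was counted instead. At 30 ng, 1 of the 8 members was past 2-fold higher, Mitf (1.04), and 1 lower, Mnt (-1.43), where 2.12% and 6.92% of all genes were. The filter admitted Mitf through the 30 and 100 ng arrays alone, so its place in this count is no result. Over each array's own highest Tag control Mitf read 0.92 at 30 ng, against a mean of 0.10 in controls. The median over all genes was 0.15 at this dose. Relative to it Mitf was 0.89 higher, under 2-fold, and crp 1.05 lower, past it. The other differences from the control mean were 0.63 for emc, 0.52 for Max, 0.49 for tgo, -0.12 for sima, -0.44 for da and -0.90 for crp.

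At 100 ng, 4 of the 8 members were past 2-fold higher and 0 lower, where 22.1% and 27.1% of all genes were. Mitf differed by 3.77, emc by 1.58, tgo by 1.47 and Max by 1.26. In folds of the control mean these were 13.6, 2.99, 2.78 and 2.39. The fold of Mitf is set by control signals near background, and over each array's own highest Tag control Mitf read 3.27 at 100 ng against a mean of 0.10 in controls. Its place in the 100 ng count is no result either, as the filter admitted it through the single-dose arrays. sima differed by 0.49, da by -0.15, crp by -0.17 and Mnt by -0.74.

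Among all tested genes, the 100 ng difference of Mitf stood at the 99.9th percentile, and Mitf had entered the tested set through the 30 and 100 ng arrays alone. emc, tgo and Max stood at the 90.7th, 88.7th and 84.4th percentiles. The spread over all genes was wide on this array, with a 5th percentile of -3.42 and a 95th of 1.93. The median of all genes was 0.05 as deposited, 0.25 after quantile normalization and -0.35 after median centring. After median centring 3 of the 8 members were past 2-fold higher and 1 lower, since Max was then at 0.85 and Mnt at -1.14. After quantile normalization the counts were 4 and 0, with Max at 1.39. Relative to the median of all genes, which median centring cannot alter, Max was 1.21 higher as deposited and 1.15 higher after quantile normalization. The value of crp relative to the median was -0.22 both as deposited and after quantile normalization, and that of Mnt was -0.79 and -0.25. The 5' control signal was low on both single-dose arrays, at -9.40 for 30 ng and -8.25 for 100 ng, so it falls on the same arrays as the higher doses. Its part in the members' differences was not tested, and where each probe set lies along its transcript was not used here.

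**Figure D4:**
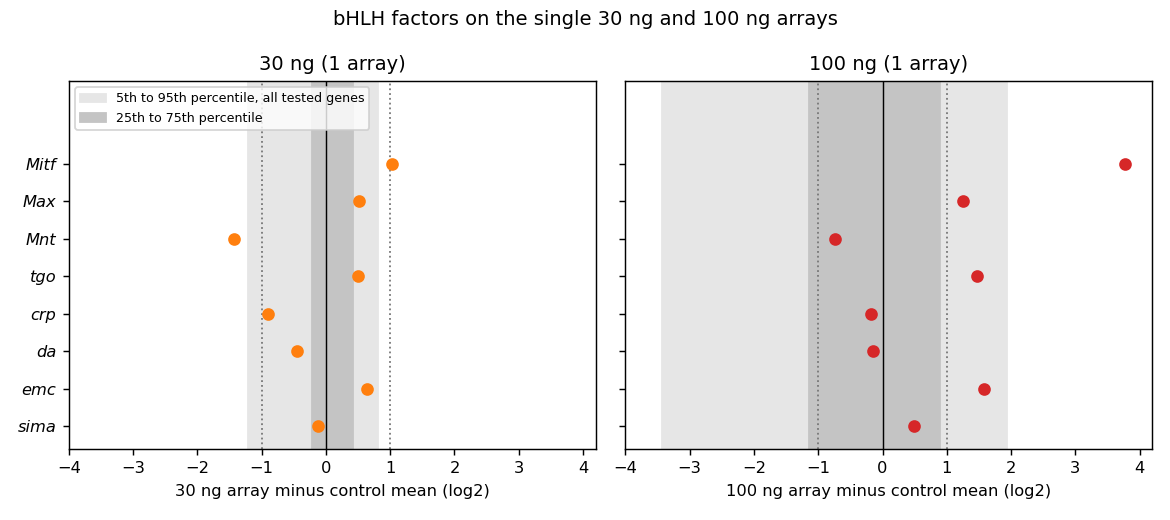
Difference of the 30 ng array (left) and of the 100 ng array (right) from the mean of the 2 controls (log2) for the 8 tested factors, 1 point per factor. Grey bands span the 25th to 75th and the 5th to 95th percentile of all tested genes, and dotted lines mark 2-fold. At 100 ng Mitf (3.77) lies outside the wide band, while emc, tgo and Max lie inside it.

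Of the 22 listed bHLH genes tested, members included, 3 had all 4 Clk arrays above both controls and 3 had them below, as did 1.88% and 7.64% of all genes. The 3 higher ones were Mitf, Clk, the transfected gene, and the Notch target E(spl)m3-HLH. Mitf and Clk had reached a signal of 4 on the 30 and 100 ng arrays alone, so the filter admitted them for being high there and their place in this count is no result. Over each array's own highest Tag control, Mitf on the second 10 ng array (-0.08) was below both controls. E(spl)m3-HLH read 5.70 and 6.29 in controls, 6.47 and 6.34 at 10 ng, then 7.09 at 30 ng and 8.61 at 100 ng. The 3 lower ones were cyc, SREBP and gce. SREBP read 12.58 and 12.54 in controls, 12.43 and 12.34 at 10 ng, then 12.18 at 30 ng and 11.01 at 100 ng. gce read 6.96 and 7.10 in controls, 6.77 and 6.80 at 10 ng, and 4.43 and 3.37 at the higher doses, the last under that array's highest Tag control. None of the 22 passed at 10 ng (limma adjusted p), and 1 had an unadjusted p under 0.05, Clk (0.00278).

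Genes that act with or after the members were described from lists, by count and median. Their 100 ng differences rest on 1 array, without a replicate. The 5' control signal was low on that array (-8.25, against -0.75 in controls), and its part in these differences was not tested. One list held 23 tested genes of lysosomal function, autophagy and TORC1 signalling, processes that Mitf is known to control or answer to. Of these, 0 rose and 0 fell at 10 ng (limma adjusted p), and 1 had an unadjusted p under 0.05. Their median difference at 10 ng was -0.17, against -0.09 for all genes. The difference was below 0 for each of the 23, and for 76.2% of all genes. The smallest unadjusted p-values were those of the autophagy gene Atg8a (-0.30), Lamp1 (-0.28), which encodes a lysosomal membrane protein, and the proton pump subunits Vha16-1 (-0.27) and Vha26 (-0.28). At 100 ng 1 of the 23 was past 2-fold higher and 6 lower, where 22.1% and 27.1% of all genes were. The share of lower genes was thus near that of all genes, while the share of higher genes was below that of all genes. Any link of these counts to Mitf was not tested. The 1 higher was the autophagy kinase Atg1 (1.23). The 6 lower were RagC-D (-5.50), cathD (-3.56), raptor (-2.86), Npc2a (-2.65), Vha100-1 (-1.78) and CtsL1 (-1.14). These genes were named after their values were seen.

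Of 12 tested genes of ribosome production, which Myc and Max are known to drive, 0 rose and 0 fell at 10 ng (limma adjusted p), with a median difference of -0.07 and no unadjusted p under 0.05. The difference was below 0 for 8 of the 12, and for 76.2% of all genes. Non1 differed by -0.19, the snoRNP gene Nop56 by -0.13, mod by -0.12 and the helicase gene pit by -0.09. At 100 ng 0 of the 12 were past 2-fold higher and 6 lower, where 22.1% and 27.1% of all genes were, and their median was -1.05 against 0.05 for all genes.

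Of 5 tested genes of the hypoxia response, 0 rose and 0 fell at 10 ng (limma adjusted p; 0 at an unadjusted p under 0.05), with a median difference of -0.20. The difference was below 0 for each of the 5, and for 76.2% of all genes. Hph, the hydroxylase that marks sima protein for breakdown, differed by -0.20, and Vhl, the ubiquitin ligase subunit that acts after it, by -0.24. The kinase gene Pdk differed by -0.25 and bnl, which encodes an FGF ligand, by -0.16. At 100 ng 3 of the 5 were past 2-fold higher, with bnl at 2.62, Vhl at 1.45 and scyl, named after its value was seen, at 1.22, and 22.1% of all genes were.

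Of 6 tested corepressors and coactivators that bHLH factors can recruit, 0 rose and 0 fell at 10 ng (limma adjusted p; 0 at an unadjusted p under 0.05), with a median difference of -0.19. The difference was below 0 for 5 of the 6, and for 76.2% of all genes. The corepressor genes gro and CtBP differed by -0.30 and -0.54, the histone deacetylase gene HDAC1 by -0.18 and the remodelling ATPase gene brm by -0.13. CtBP read 10.23 and 10.42 in controls and 9.05 and 10.52 at 10 ng, so its groups overlapped. At 100 ng 1 of the 6 was past 2-fold higher and 3 lower, where 22.1% and 27.1% of all genes were. The differences were 1.83 for gro, 0.70 for nej and 0.36 for brm. They were -4.99 for CtBP, -3.58 for HDAC1 and -1.44 for Snr1. CtBP had 2 probe sets, as did nej, Vha16-1, Hph, Pdk and gce, and bnl had 3. The values given for each come from its brightest tested probe set.

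Likeness of pattern was measured as the root mean square distance between the differences from control on the 4 Clk arrays. The 5 tested genes nearest to Mitf were Prx6c, which encodes a peroxiredoxin (0.13), CG42857 (0.22), CG13248 (0.27), CG5381 (0.28) and the nuclear receptor gene ERR (0.28). Prx6c read 5.94 and 6.32 in controls, 6.42 and 6.22 at 10 ng, then 6.97 at 30 ng and 9.81 at 100 ng, so it was above background on each array. No tested gene lay within 0.1 of Mitf, and 8 lay within 0.3. Mitf lay near background on the control and 10 ng arrays and entered the tested set through the 30 and 100 ng arrays alone. Its neighbours and their counts are therefore no result. The 5 nearest to Max were CG10737 (0.027), the translation quality control gene pelo (0.032), Pmvk (0.036), CG34041 (0.037) and Acn (0.038). The pattern of Max was common, with 110 tested genes within 0.1 and 1258 within 0.3, and that of tgo was shared to the same distances by 88 and 1038. For the repressor Mnt the counts were 0 and 15, and for emc 0 and 10. These distances rest on 4 arrays and the same controls, are dominated by the 100 ng array, and are given as a description.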

How the data were processed

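RNA of 6 S2 cell samples was measured on Affymetrix arrays. Per the labels, it was TRIzol-extracted and biotin-labelled, and the submitters' processing notes name GCRMA alone. The authors deposited intensity values in 1 column per array, with 0 columns unassigned. Their natural log (1.69 to 15.85) was read as the log2 signal, because at face value 8701 of 113712 values exceed a 16-bit scanner (log2 up to 22.86) and 0 do so otherwise. This is an inference.

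Of 18952 probe sets, 183 controls were left out. By the platform's annotation 13647 of the rest had a single symbol, 402 had several and 4720 had none. Symbols were brought up to date through RefSeq by Entrez ID (13544) or synonym. Tests used limma 3.58.1 in R 4.3.3 (1 coefficient per group, eBayes with an intensity trend, 2 residual and 7.60 prior degrees of freedom), with the data.table package (version 1.17.8). Figures used matplotlib 3.10.9 in Python 3.11.15. Scripts were tested on simulated data. Groups come from the titles.

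The members and lists were chosen with earlier results of these data known. Genes named were every member, Clk, cyc, other bHLH genes whose 4 Clk arrays lay beyond both controls in 1 direction, up to 4 genes per list with the smallest p at 10 ng, and the 5 nearest patterns to Mitf and Max. Further bHLH genes were named to list those above or at background. Atg1, scyl, nej, Snr1 and the 6 lysosome, autophagy and TORC1 genes past 2-fold lower at 100 ng were named after their values were seen. No sequence or genome coordinate was used here. The number of arrays limits the precision.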

Additional observations from a re-analysis of the deposited data

How the results depend on the processing

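None of the 8 tested members passed at 10 ng in any of 15 settings (14 for Mitf, which is not tested with a filter at 6), and the smallest adjusted p was 0.650 (emc, without the first 10 ng array). Their differences ranged from -0.63 (sima, without the second 10 ng array) to 0.66 (emc, without the first). The number of genes called over the whole array at 10 ng was 4. It was 0 at face value (246 at an unadjusted p under 0.05), 0 with no filter (354), 13 with the replicate block and 10 with robust moderation, and 1 to 12 when 1 array was left out: 1 without the first 10 ng array, 2 without the second, 12 without the first control and 8 without the second. With the filter at 6, the block or a control left out, the prior degrees of freedom were infinite and p-values ignored the spread of the single gene. With robust moderation their median over probe sets was infinite. The labels do not say what a shared replicate number stands for. Replicate 2 minus replicate 1 correlated at 0.334 between the groups over 8446 probe sets, and the block called no member. The count past 2-fold at 30 ng was 597, and 1287 at face value, and the cause was not tested beyond the 1.44-fold stretch of that reading and its larger tested set (8993 genes). Other settings moved the total 30 and 100 ng counts by less than 1.5 times, but not the counts of higher genes. At 30 ng 140 were higher, 246 without the second control array (36.9% of calls) and 86 with the filter at 6 (16.7%), and at 100 ng 1461 were, and 826 after median centring. The share of these calls that were higher at 100 ng was 45.0% as deposited, 54.7% after quantile normalization and 26.9% after median centring, and at 30 ng 23.5%, 33.3% and 20.1%.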
